A study of Rattus norvegicus with 8 samples.

Results

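The genes described here are 34 genes of the oligodendrocyte lineage, from the surface receptors of precursor cells to the proteins of compact myelin. They were picked by symbol, with earlier results of these data known, and 28 of the 34 carry their symbol in the authors' deposited table and could be joined to the counts. The other 6, Neu4, Opalin, Ermn, Gjc3, Aspa and Ninj2, had no matching entry and were not analysed here. Counts covered 32623 annotated genes, of which 11740 were abundant enough to be tested, and 25 of the 28 joined members were among them. Polyadenylated RNA came from hippocampal neuronal cultures of wild-type SD rats, taken at 18 days in vitro. Vehicle had been given to the cultures of 4 libraries. The other 4 had received a positive allosteric modulator (PAM) of NMDA receptors, the glutamate-gated channels whose response to agonists such a compound enlarges. The sources used here do not give the compound, its dose, the length of exposure, the age of the donor animals or any treatment against dividing cells. The labels do not say that replicates were separate cultures, so the p-values measure the spread between these libraries, which may be technical. The comparison asks which transcripts of the lineage differed in cultures in which NMDA receptors had been potentiated.

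Oligodendrocytes are the cells that wrap axons in myelin in the central nervous system. They arise from dividing precursor cells that carry the PDGF alpha receptor and the NG2 proteoglycan, pass through a premyelinating stage, and then make large amounts of sheath proteins and of the lipids galactosylceramide and sulfatide. Transcription factors of the Olig, Sox and Nkx families mark the lineage, and Myrf switches on the myelin genes. Cultures of hippocampal neurons hold such cells beside astrocytes. In RNA from a whole culture, fewer cells of a type and less RNA per cell cannot be told apart.

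Promoter sequences are shown for 5 members that follow in the results, to set genes of the myelin sheath beside the precursor receptor gene. Each is the 250 bases before the annotated start of the gene, 5′ to 3′ on the strand of the gene, from RefSeq on build GRCr8. Cnp lies at chr10:86011254-86011503 (plus strand), Mag at chr1:95291045-95291294 (minus), Cldn11 at chr2:114149540-114149789 (minus), Mobp at chr8:128746982-128747231 (plus) and Pdgfra at chr14:33408517-33408766 (minus). Capitals mark matches on either strand to short sequences known from factors of the lineage: ACAAAG or ACAATG for Sox factors, CAGCTG or CAGATG as an E-box that Olig2 can bind, and CTGGCAC or CTGGTAC for Myrf.
Cnp: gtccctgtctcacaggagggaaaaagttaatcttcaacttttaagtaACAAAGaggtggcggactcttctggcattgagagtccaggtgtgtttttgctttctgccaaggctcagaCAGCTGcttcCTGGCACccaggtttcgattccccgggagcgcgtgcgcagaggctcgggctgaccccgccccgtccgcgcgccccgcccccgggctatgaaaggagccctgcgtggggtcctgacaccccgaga
Mag: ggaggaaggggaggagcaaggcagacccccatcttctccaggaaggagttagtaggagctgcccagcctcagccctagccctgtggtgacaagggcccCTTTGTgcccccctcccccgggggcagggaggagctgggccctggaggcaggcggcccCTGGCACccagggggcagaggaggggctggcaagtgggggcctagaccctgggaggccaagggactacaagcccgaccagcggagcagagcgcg
Cldn11: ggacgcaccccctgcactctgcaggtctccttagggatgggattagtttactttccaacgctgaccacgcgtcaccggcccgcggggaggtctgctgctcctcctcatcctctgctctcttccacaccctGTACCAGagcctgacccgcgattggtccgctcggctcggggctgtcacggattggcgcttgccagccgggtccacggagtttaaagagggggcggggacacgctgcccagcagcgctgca
Mobp: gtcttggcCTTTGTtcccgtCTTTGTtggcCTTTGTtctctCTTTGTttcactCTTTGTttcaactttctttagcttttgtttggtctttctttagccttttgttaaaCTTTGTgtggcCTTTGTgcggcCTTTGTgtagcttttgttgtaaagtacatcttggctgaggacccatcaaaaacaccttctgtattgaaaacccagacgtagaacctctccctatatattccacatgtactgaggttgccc
Pdgfra: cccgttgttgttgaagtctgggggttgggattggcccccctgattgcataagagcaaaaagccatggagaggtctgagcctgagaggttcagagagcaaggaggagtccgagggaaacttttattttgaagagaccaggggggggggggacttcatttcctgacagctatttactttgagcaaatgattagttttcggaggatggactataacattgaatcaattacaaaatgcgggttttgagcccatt

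A promoter entry was found for 24 of the 34 genes. The Myrf letters occurred in 6 of these 24 (25%), in Cnp, Mag, Cldn11, Mal, Olig2 and Opalin, and in 5.35% of 27457 promoters of the same length. Sox letters occurred in 6 of 24 (25%, against 24.8% of all promoters) and E-box letters in 5 of 24 (20.8%, against 24%). No match of one kind overlapped a match of another kind in these promoters. Cnp alone among the 5 printed held all 3 kinds. Mobp held 8 Sox matches, all on the opposite strand and in a stretch of repeated units, and Pdgfra held no match. Of the sheath genes not printed, Mal, Opalin and Gjc3 held matches, and Mbp and Pllp, which both rose with PAM, held none. Each printed sheath gene thus held a match and Pdgfra none, but with Mbp and Pllp included this contrast does not hold for the sheath genes. The windows were also richer in G and C than most, with a median of 60.8% against 52% over all promoters, and the motifs were chosen with the results known. A match is a description of letters, not evidence of binding.

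With PAM, 2 of 3 tested premyelinating genes, 4 of 6 sheath protein genes and 3 of 6 transcription factors rose and none of these fell. Of 4 lipid and metabolic enzymes 1 rose and 1 fell, and of 3 precursor genes none rose and 1 fell. Of the 25 tested members, 12 rose and 2 fell with PAM (quasi-likelihood test of edgeR, with p-values adjusted over all tested genes after Benjamini and Hochberg and a threshold of 0.05). Across all tested genes 9% rose and 9.89% fell, 18.9% together. All 4 PAM libraries lay above all 4 vehicle libraries for 13 members and below them for 1, against 10.3% and 12% of all tested genes. The median log2 fold change (PAM over vehicle) of the 25 was 0.71, beside 0.02 for all tested genes. Some of these members entered the test mainly through PAM libraries: for Gpr17, Cldn11, Ugt8, Fa2h, Lpar1 and Evi2a at most 2 vehicle libraries reached the filter's 2.88 CPM, so a gene with so few vehicle counts was tested because it was higher with PAM. The counts above and the median therefore carry that selection. Over the other 19 members 7 rose and 2 fell, 9 had all PAM libraries above and 1 all below the vehicle libraries, and the median log2 fold change was 0.58. The plot of fold changes shows every tested member by stage.

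**Figure D1:**
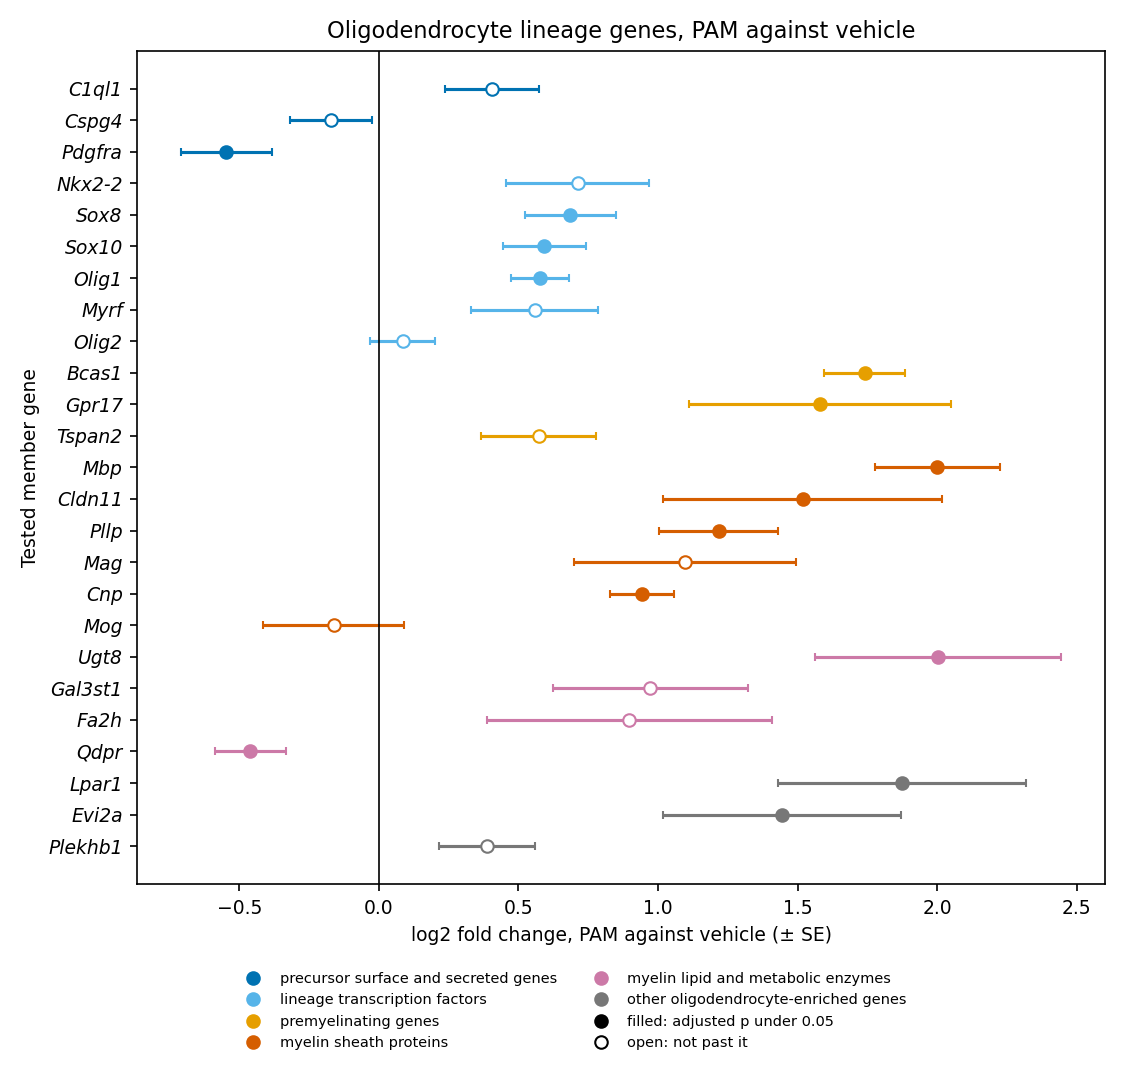
Log2 fold change of each of the 25 tested members, PAM against vehicle, with its standard error (horizontal axis), by list (colour); filled points passed the adjusted p of 0.05. Mbp (2.0) and Ugt8 (2.0) lie farthest to the right, and Pdgfra (-0.55) and Qdpr (-0.46) are the filled points left of 0.

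Libraries held 2960406 to 4389430 counts. A rough upper limit for the expected count where 0 was seen is 3 counts (counting error only). Over the unscaled library totals this corresponds to 0.683 to 1.01 CPM. Elsewhere CPM is the count divided by the scaled library size and multiplied by 1000000. Longer genes had fewer counts in PAM 3 and PAM 4 (slope of the log2 level on log2 length -0.0854 and -0.133), whereas the slope lay between 0.00538 and 0.0632 in each of the remaining 6. Markers of other cells also differed between the groups. Astrocyte markers summed to 6353 to 6661 CPM with vehicle and 9227 to 11260 CPM with PAM (5 of 11 tested rose, none fell), and cell division markers to 189 to 230.1 and 400.0 to 558 CPM (8 of 9 rose, none fell). Ependymal and choroid plexus markers summed to 47.9 to 61.9 and 159 to 234 CPM (5 of 6 rose), pericyte and fibroblast markers to 95.8 to 147 and 132 to 238 CPM (2 of 5 rose), and neuron markers to 4687 to 5306 and 3359 to 4026 CPM (4 of 9 fell, none rose). Microglial markers stayed low in both groups, at 15.4 to 47.6 and 12.6 to 18.9 CPM (0 of 2 tested passed edgeR at an adjusted p under 0.05, and the smaller unadjusted p was 0.0463). Endothelial Kdr rose, the only endothelial marker tested, with the list at 5.95 to 11.7 and 12 to 22.8 CPM. Of Schwann cell markers, which could share myelin genes, Sox2, which astrocytes also express, rose and Pmp2 did not pass, and the list lay at 103 to 138 and 143 to 170.4 CPM. Sox2, at means of 114 and 152 CPM, made up most of that sum, so it says little of the other markers of this list. No matched marker was at 0 in all libraries. Their part in the results on the lineage was not tested.

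Among the precursor genes, Pdgfra fell and the other members did not pass. Pdgfra (ENSRNOG00000002244; Rnor_6.0 chromosome 14, 35527927 to 35581031, minus strand), the receptor through which PDGF keeps precursors dividing, stood at 105, 94.1, 80.2 and 81.5 CPM in vehicle 1 to 4 and at 61.5, 81.0, 60.2 and 42.2 CPM in PAM 1 to 4. PAM 2 lay within the vehicle range and the other 3 PAM libraries below it. The log2 fold change was -0.55 ± 0.16 (SE; edgeR, adjusted p = 0.024). The call was lost without vehicle 1 (-0.46, adjusted p = 0.0938), without vehicle 2 (-0.52, 0.0765), without PAM 1 (-0.54, 0.0521) and without PAM 3 (-0.53, 0.0602), all by edgeR. With both PAM 3 and PAM 4 left out it was -0.32 (edgeR, adjusted p = 0.0917), a smaller fall by more than 1.5 times.

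Cspg4, which encodes the NG2 proteoglycan of precursors and is also made by pericytes, was at 46.2 to 63.6 CPM with vehicle and 41.1 to 54.6 CPM with PAM. The groups overlapped (log2 fold change -0.17 ± 0.15, edgeR, adjusted p = 0.464). C1ql1, a secreted C1q-like protein gene of precursors that neurons also use, stood at 28.7 to 47.6 and 47.4 to 59 CPM, with overlapping groups, and its log2 fold change of 0.41 ± 0.17 did not pass (edgeR, adjusted p = 0.102). The direction of this gene was thus opposite to that of the other precursor genes. Pdgfrb, a pericyte receptor gene, was at 7.0 CPM with vehicle and 7.51 CPM with PAM and did not pass either. It does not stand for its list of pericyte and fibroblast markers, of which 2 of 5 tested rose.

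Of the 6 transcription factors tested, Olig1, Sox10 and Sox8 rose and none fell, and the log2 fold changes ran from 0.09 to 0.71 with a median of 0.59. Olig1 (ENSRNOG00000028648; chromosome 11, 31428358 to 31430517, plus strand), needed for precursors to mature, had 489, 559, 493 and 452 CPM with vehicle and 752, 673, 826 and 724 CPM with PAM. The groups did not overlap, and the gene rose by 0.58 ± 0.10 on the log2 scale (edgeR, adjusted p = 0.000627). Its neighbour Olig2, which specifies the lineage and lies on the same chromosome at 31389514 to 31392890, was at 101, 107, 113 and 113 CPM with vehicle and 135, 114, 112 and 99.2 CPM with PAM. PAM 1 was above and PAM 4 below the vehicle libraries, and PAM 2 and PAM 3 were close to the highest of them (0.09 ± 0.12, edgeR, adjusted p = 0.667). Without PAM 1 its log2 fold change was -0.0016.

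Sox10, which drives myelin gene transcription, rose from 41 to 57.6 CPM with vehicle to 64.9 to 92 CPM with PAM (log2 fold change 0.59 ± 0.15). The related Sox8 rose from 33.6 to 43.8 to 48.7 to 75.8 CPM (0.69 ± 0.16). Neither gene had overlapping groups, and the adjusted p was 0.00826 for Sox10 and 0.00558 for Sox8 by edgeR. Nkx2-2, which promotes differentiation of precursors, had 8.74 to 14.6 and 13.1 to 24.9 CPM, with overlapping groups, and did not pass (0.71 ± 0.26, edgeR, adjusted p = 0.0591). It passed without PAM 3 (0.86, edgeR, adjusted p = 0.0305). Myrf, the activator of myelin genes, had 11.6, 13.2, 16.9 and 21.4 CPM with vehicle and 23.7, 26.4, 18.9 and 23.4 CPM with PAM. Only PAM 3 fell inside the vehicle range, and the gene did not pass (0.56 ± 0.23, edgeR, adjusted p = 0.0964), although it did without both PAM 3 and PAM 4 (0.69, edgeR, adjusted p = 0.0339).

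Of the 3 premyelinating genes tested, Bcas1 and Gpr17 rose. Bcas1 (ENSRNOG00000012906; chromosome 3, 167957994 to 168033457, minus strand), a protein gene that marks cells newly starting to myelinate, had 54, 53.4, 50.7 and 44.7 CPM with vehicle and 209, 188, 128 and 153 CPM with PAM. The lowest PAM library was far above the highest vehicle library. Its log2 fold change of 1.74 ± 0.15 had the smallest adjusted p of the members (edgeR, 6.1e-07). Gpr17, a receptor gene that is switched on for a short time in cells leaving the precursor stage, had 2, 9, 9 and 9 counts with vehicle and 36, 38, 19 and 13 counts with PAM. In CPM all PAM libraries (4.69 to 8.3) were above all vehicle libraries (0.61 to 2.91), and the gene rose by 1.58 ± 0.47 on the log2 scale (edgeR, adjusted p = 0.0239). That call was lost without vehicle 1 (1.28, adjusted p = 0.066), vehicle 2 (1.65, 0.0584), PAM 1 (1.45, 0.0784) or PAM 2 (1.46, 0.061), all by edgeR.

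Tspan2, a tetraspanin gene of maturing oligodendrocytes, had 16.3 to 25.9 CPM with vehicle and 23 to 38.7 CPM with PAM, with PAM 3 inside the vehicle range. It did not pass (0.57 ± 0.21, edgeR, adjusted p = 0.0596). It did pass without vehicle 1 (0.69, adjusted p = 0.0474), without PAM 3 (0.69, 0.031), without PAM 4 (0.60, 0.0465), with neither PAM 3 nor PAM 4 in the fit (0.79, 0.00331) and with the length trend removed (0.62, 0.0318), all by edgeR. Enpp6, a choline phosphodiesterase gene of newly formed oligodendrocytes, was too low to test, with 1, 1, 0 and 1 counts with vehicle and 6, 7, 3 and 0 counts with PAM. A difference in Enpp6 was not detectable at this depth.

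Sheath protein genes held some of the largest differences, with a wide spread between PAM libraries. Of 6 tested, 4 rose and 0 fell. Mbp (ENSRNOG00000016516; chromosome 18, 79326738 to 79437310, plus strand), the basic protein that compacts the myelin membrane, had 51.5, 50.4, 42.6 and 48.5 CPM with vehicle and 266, 216, 188 and 99.5 CPM with PAM. All PAM libraries were above the vehicle libraries, with PAM 4 well below the other PAM libraries. The mean was 3.99 times as high with PAM (log2 fold change 2.0 ± 0.22, edgeR, adjusted p = 2.58e-05). Cnp (ENSRNOG00000017496; chromosome 10, 88490798 to 88497356, plus strand), an enzyme of uncompacted myelin that is already made by precursors, had 123, 119, 104 and 104 CPM with vehicle and 246, 199, 224 and 194 CPM with PAM. Here the PAM libraries were close together and apart from vehicle (0.94 ± 0.11, edgeR, adjusted p = 1.73e-05). Pllp, the tetraspan protein plasmolipin, rose from 9.71 to 16.2 CPM with vehicle to 25.2 to 33.2 CPM with PAM (1.22 ± 0.21, edgeR, adjusted p = 0.000515), and its highest library was PAM 4.

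Mag, an adhesion molecule of the inner sheath membrane, had 8.54, 6.06, 6.58 and 11.3 CPM with vehicle and 27, 19.6, 17.5 and 3.97 CPM with PAM. In 3 PAM libraries it was above every vehicle library and in PAM 4 below every vehicle library. It did not pass with all libraries (1.10 ± 0.40, edgeR, adjusted p = 0.0634) and did without PAM 4 (1.40, edgeR, adjusted p = 0.000608). Mag also passed with no low-count filter (adjusted p = 0.00376) and with the length trend removed (0.04), both by edgeR. Cldn11, the claudin that seals the layers of myelin, had 12, 19, 3 and 6 counts with vehicle and 42, 54, 37 and 7 counts with PAM. PAM 4 (2.52 CPM) lay within the vehicle range of 0.94 to 5.23 CPM. Cldn11 rose by 1.52 ± 0.50 on the log2 scale (edgeR, adjusted p = 0.0401). It lost that call without vehicle 1 (1.63, adjusted p = 0.0663), vehicle 3 (1.23, 0.113), vehicle 4 (1.37, 0.121), PAM 1 (1.46, 0.089), PAM 2 (1.34, 0.094) or PAM 3 (1.43, 0.0989), all by edgeR, and by limma-voom (1.62, adjusted p = 0.0635).

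Mog, the surface glycoprotein that appears late in sheath formation, did not follow the others. It had 12.5, 14.6, 10.3 and 13.9 CPM with vehicle and 12.5, 12.4, 11.8 and 9.01 CPM with PAM. The groups overlapped, and the log2 fold change was -0.16 ± 0.25 (edgeR, adjusted p = 0.711). Mog shares exon bases with another annotated gene that held 81 counts over all libraries, so its value is less certain where reads could be given to either gene.

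Mobp and Mal were below the filter. Mobp, a small basic protein of compact myelin, had 4, 8, 3 and 3 counts with vehicle and 51, 39, 23 and 2 counts with PAM. PAM 1 to 3 were well above every vehicle library, and PAM 4, at 2 counts and 0.72 CPM, was below them all. The lowest vehicle libraries held 3 counts, so this gap lies at the rough limit of 3 counts. Mal, a lipid raft protein of myelin, had 7, 2, 0 and 2 counts with vehicle and 23, 28, 5 and 4 counts with PAM, with PAM 3 and PAM 4 inside the vehicle range in CPM. In a fit with no low-count filter the log2 fold change was 2.33 ± 0.54 for Mobp (edgeR, adjusted p = 0.000372) and 2.07 ± 0.73 for Mal (edgeR, adjusted p = 0.0372). The authors' deposited table gives Mobp a log2 fold change of 2.35 with an adjusted p of 0.00394 and Mal 2.10 with 0.0557. With the untested genes included, the median of the 8 sheath genes in the unfiltered fit was 1.36.

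**Figure D2:**
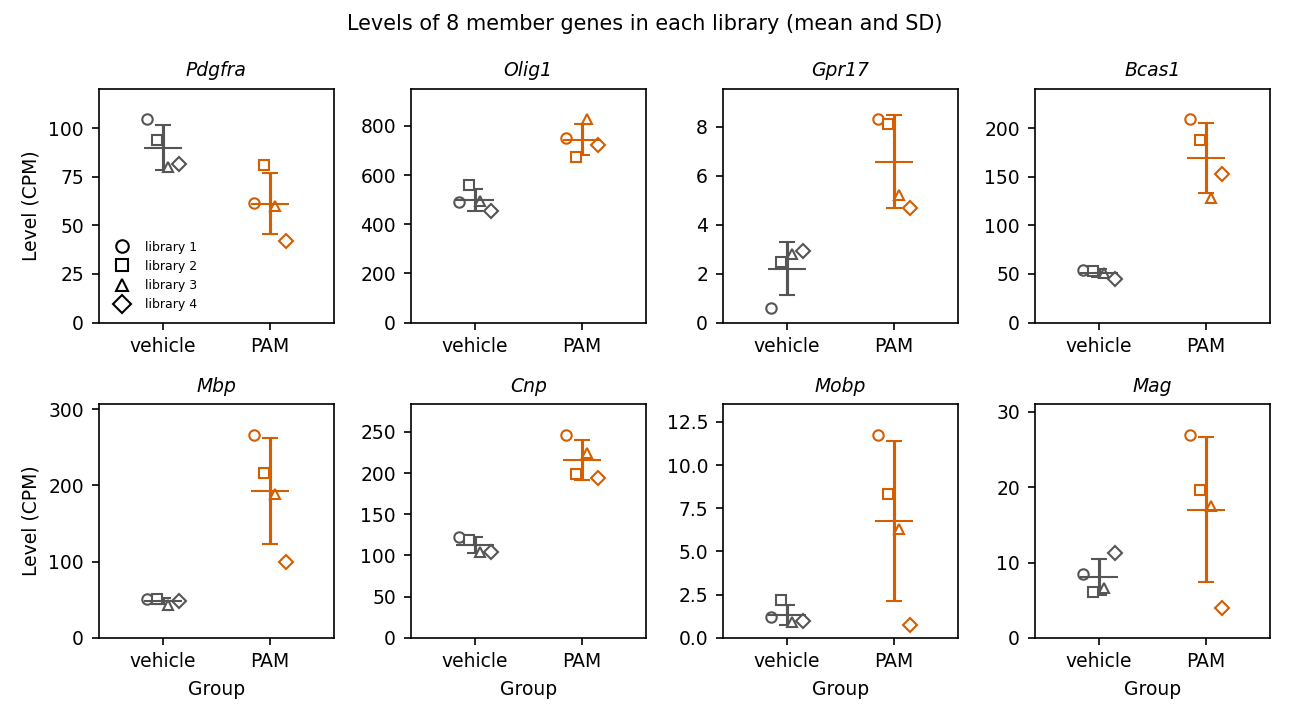
Level in CPM (vertical axis, from 0) of 8 members in each vehicle and PAM library; bars show the mean and SD (n = 4) and symbols the library number. Bcas1, Cnp, Olig1, Gpr17 and Mbp show no overlap of groups, whereas PAM 4 (diamond) lies below every vehicle library for Mobp (0.72 CPM, only 2 counts) and Mag (3.97 CPM).

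The enzymes of myelin lipid synthesis were low in vehicle libraries. Ugt8, which makes galactosylceramide, had 5, 14, 3 and 12 counts with vehicle and 46, 70, 33 and 18 counts with PAM. In CPM the groups did not overlap (0.94 to 3.88 against 6.49 to 14.9), and the gene rose by 2.0 ± 0.44 on the log2 scale (edgeR, adjusted p = 0.00344). Gal3st1, which sulfates that lipid to sulfatide, had 3.56 to 5.64 CPM with vehicle and 6.18 to 12.6 CPM with PAM. Its groups did not overlap either, but it did not pass (0.97 ± 0.35, edgeR, adjusted p = 0.0586), except without PAM 2 (1.14, edgeR, adjusted p = 0.0325). Fa2h, which adds the hydroxyl group to myelin fatty acids, had 1.62 to 6.89 CPM with vehicle and 12.7, 7.89, 6.57 and 1.8 CPM in PAM 1 to 4. PAM 3 and PAM 4 lay within the vehicle range, and 0.90 ± 0.51 did not pass (edgeR, adjusted p = 0.241), although the gene did pass without both of them (1.38, edgeR, adjusted p = 0.0183).

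Qdpr moved the other way. It encodes the enzyme that regenerates tetrahydrobiopterin and is abundant in oligodendrocytes without being confined to them. It had 119, 116, 153 and 110.0 CPM with vehicle and 85.5, 82.5, 103 and 91.2 CPM with PAM. All PAM libraries were lower, and the gene fell by 0.46 ± 0.13 on the log2 scale (edgeR, adjusted p = 0.0152). Without vehicle 3, its highest library, the log2 fold change was -0.35 and did not pass (edgeR, adjusted p = 0.0786).

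Of the remaining members, Lpar1, a lysophosphatidic acid receptor gene of oligodendrocytes, had 15, 7, 6 and 5 counts with vehicle and 29, 57, 21 and 35 counts with PAM. Its CPM values of 1.62 to 4.57 and 5.75 to 12.6 did not overlap, and it rose by 1.88 ± 0.44 on the log2 scale (edgeR, adjusted p = 0.00585). Evi2a, a membrane protein gene, had 4, 19, 7 and 9 counts with vehicle and 34, 39, 24 and 26 counts with PAM, and also rose (1.44 ± 0.43, edgeR, adjusted p = 0.0234). The Evi2a call was lost without vehicle 1 (1.20, adjusted p = 0.0647), vehicle 3 (1.33, 0.0673) or vehicle 4 (1.44, 0.0618), all by edgeR. Plekhb1, a pleckstrin-homology protein gene also known from the retina, had 21.6 to 24.5 CPM with vehicle and 26.3 to 33.7 CPM with PAM. Its groups were apart but close together, and it did not pass (0.39 ± 0.17, edgeR, adjusted p = 0.128).

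Set side by side by stage, the summed level of the 3 precursor genes was 186, 185, 191 and 178 CPM with vehicle and 175, 179, 149 and 148 CPM with PAM. The 4 premyelinating genes summed to 80.8, 77.9, 69.8 and 67.6 CPM with vehicle and 257, 231, 157 and 186 CPM with PAM. The 8 sheath genes summed to 219, 210.0, 175 and 194 CPM and to 610, 498, 487 and 345 CPM. Precursor sums therefore overlapped between groups, while the sums of both later stages were higher in every PAM library than in every vehicle library. Within a library, the sheath sum was 0.915 to 1.18 times the precursor sum with vehicle and 2.33 to 3.48 times with PAM. The premyelinating sum was 0.365 to 0.435 times the precursor sum with vehicle and 1.06 to 1.47 times with PAM. The ratio of sheath to premyelinating sums did not move in this way, at 2.51 to 2.86 with vehicle and 1.85 to 3.11 with PAM. Bcas1 makes up most of the premyelinating sum, and Cnp and Mbp most of the sheath sum. No test was made of these sums, since the genes were listed with results in view. Median log2 fold changes of the tested genes were -0.17 for 3 precursor genes, 1.58 for 3 premyelinating genes and 1.16 for 6 sheath genes. The premyelinating median is the value of Gpr17, which entered the test through PAM libraries, as Cldn11 did among the sheath genes. Both later medians carry that selection. Without Gpr17, the premyelinating values were 1.74 for Bcas1 and 0.57 for Tspan2. Sheath genes other than Cldn11 were at 2.0 (Mbp), 1.22 (Pllp), 1.10 (Mag), 0.94 (Cnp) and -0.16 (Mog). The precursor median was -0.10 without vehicle 3, -0.10 without PAM 3, -0.05 with neither PAM 3 nor PAM 4 in the fit and -0.03 with the length trend removed. In the unfiltered fit, with every joined member counted, the medians were -0.18, 1.66 and 1.36.

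**Figure D3:**
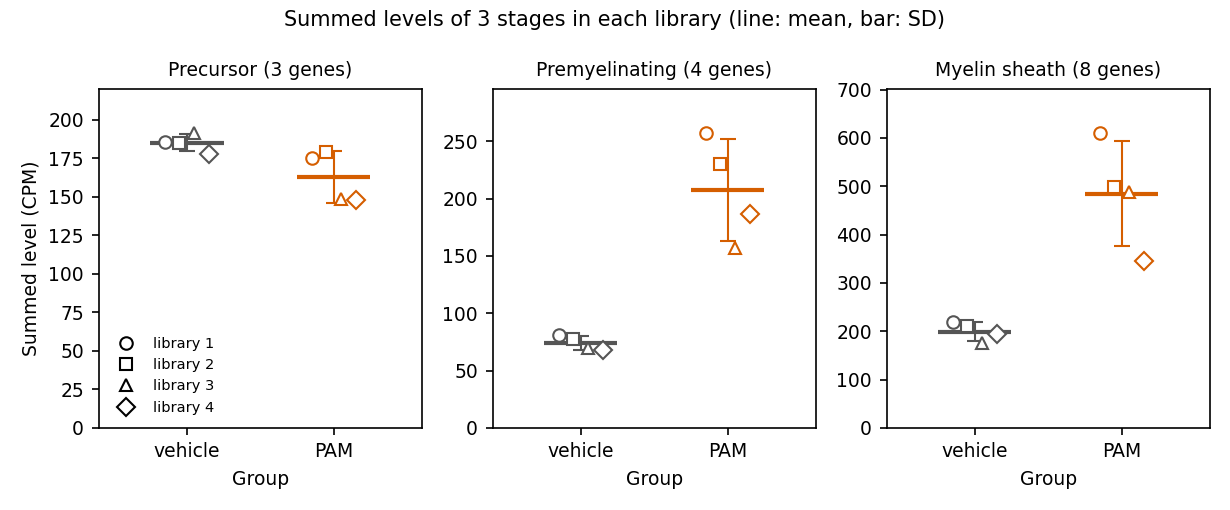
Summed CPM (vertical axis, from 0) of the joined genes of 3 stages in each library; line and bar give the mean and SD (n = 4) and symbols the library number. Precursor sums run from 148 to 191 CPM over both groups, and premyelinating and sheath sums are higher in every PAM library than in every vehicle library, with the lowest sheath sum with PAM in PAM 4 (345 CPM).

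PAM 4 stood apart for part of the list. Against the mean of PAM 1 to 3, its level was 0.082 times for Mobp, 0.186 times for Mag, 0.199 times for Fa2h, 0.242 times for Cldn11 and 0.445 times for Mbp. Over all tested genes the median of this ratio was 0.982, its 5th percentile was 0.365, and 9.6% of genes were under 0.5. Mal was at 0.342 times, though PAM 3 was lower still, and the sparse Enpp6 had 0 counts in PAM 4. Ugt8 (0.563), Pdgfra (0.624), Gpr17 (0.651) and Sox8 (0.706) were lower to a lesser degree. Some other members in the same library did not share this, with 0.873 for Bcas1, 0.871 for Cnp, 0.964 for Olig1, 1.18 for Pllp, 1.5 for Gal3st1 and 1.54 for Lpar1. PAM 4 is the library with the fewest counts and the steepest length trend. With that trend removed by a smooth curve, the log2 fold change of Mag was 1.09, close to the 1.10 of the main fit, and the gene passed (edgeR, adjusted p = 0.04). A fold change between groups does not show how far PAM 4 itself moved. Without PAM 4, Mbp was at 2.21 and Cldn11 at 1.79, both past edgeR's test (adjusted p = 9.95e-11 and 0.00359), and Fa2h at 1.19 was not (adjusted p = 0.0527). Whether length or depth plays a part in the low values of PAM 4 was not tested. The map of levels by library shows this column beside the others.

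**Figure D4:**
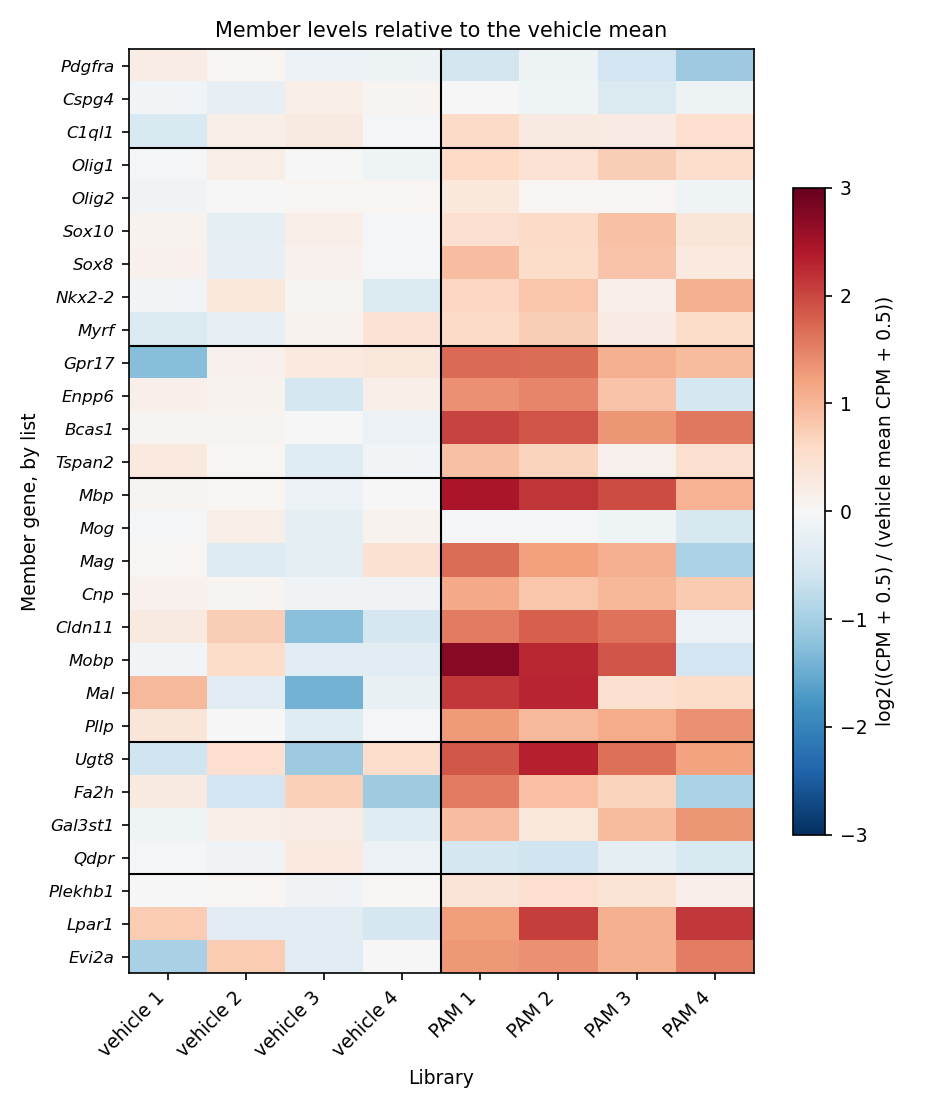
Each joined member (rows, grouped by list) in each library (columns) as log2 of its CPM plus 0.5 over the vehicle mean plus 0.5; red is higher and blue lower than the vehicle mean. Most premyelinating and sheath rows, with Mog as an exception, are red in PAM 1 to 3. In PAM 4 the rows of Mag, Mobp, Cldn11 and Fa2h are on the blue side, at 0.488, 0.541, 0.858 and 0.455 times the vehicle mean before the added constant. Cldn11 and Fa2h lie inside their vehicle ranges there, Cldn11 near the vehicle mean, and Mobp rests on 2 counts.

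Levels can be compared between genes only per length, as RPKM (CPM per kilobase of exon; mean ± SD, n = 4). In vehicle libraries Olig1 was the most abundant member at 231 ± 20.5 RPKM, followed by Qdpr at 93.6 ± 14.5, Cnp at 48.9 ± 4.26, Olig2 at 41 ± 2.24 and C1ql1 at 32.1 ± 6.79 RPKM, each above the next by more than its SD. Bcas1 (18 ± 1.52 RPKM), Sox10 (16.5 ± 2.38), Mbp (14.3 ± 1.18) and Pdgfra (13.8 ± 1.77) came next, each within the spread of its neighbour in this order. The lowest were Mal, Mobp and Enpp6, at 0.367, 0.348 and 0.104 RPKM. In PAM libraries Olig1 stayed first at 344 ± 29.6 RPKM and Cnp was second at 93.9 ± 10.5, above Qdpr at 68.1 ± 6.78. Bcas1 (60.2 ± 12.8 RPKM) was within its spread of both Qdpr and Mbp (57.1 ± 20.7), and Mbp within its spread of Olig2 (43.4 ± 5.66) and C1ql1 (42.6 ± 4.9). Pdgfra was at 9.4 ± 2.44 RPKM.

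Further genes of the lineage, from lists that were also drawn up with earlier results known, did not show the order of the member stages in their sums. Those of the precursor stage summed to 990.4 to 1048 CPM with vehicle and 1087 to 1638 CPM with PAM, with no overlap, and those of the differentiating and myelinating stage to 2130 to 2325 and 2206 to 2549 CPM, with overlap. Of 13 tested precursor-stage genes, 2 rose and 0 fell, with a median log2 fold change of 0.21, and both that rose are also known from astrocytes or other glia. They were the receptor gene Gpr37l1 (1.12 ± 0.12, edgeR, adjusted p = 6.61e-06) and the matrix proteoglycan gene Bcan (0.33 ± 0.11, adjusted p = 0.0476, overlapping groups). The matrix genes Vcan (0.62 ± 0.23, adjusted p = 0.0646) and Matn4 (0.84 ± 0.31, adjusted p = 0.0688) did not pass, and Matn4 shares exon bases with a gene that held 181 counts. Of 20 tested differentiating and myelinating genes, 10 rose and 2 fell, with a median of 0.46. The precursor-stage median thus lay below the later one, as among the members and unlike the sums. Sums are weighted by their most abundant genes. In the later list the highest in CPM was the tubulin gene Tubb4a, which fell from 670.5 to 434.7 CPM (-0.63 ± 0.12, edgeR, adjusted p = 0.00113). Cd9, a tetraspanin gene that many cells use, rose by 1.31 ± 0.12 and Adamts4, a protease gene of mature oligodendrocytes, by 2.08 ± 0.35 on the log2 scale. Ndrg1, a gene of myelinating cells that also responds to low oxygen, fell by 1.21 ± 0.18 on the log2 scale, from 61.7 to 26.8 CPM. These 3 passed edgeR with adjusted p of 2.19e-06, 0.00033 and 9.57e-05.

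Of 20 tested growth factor and receptor genes of the lineage, 3 rose, 4 fell and 13 did not pass, with a median of -0.13, beside 9% and 9.89% of all tested genes that rose and fell. The ligand gene Pdgfb fell from 40.4 to 15.4 CPM (-1.40 ± 0.21, edgeR, adjusted p = 0.000108). Pdgfa, which codes for the main ligand of the precursor receptor and is named here after its value was seen, was at 39.3 and 27.6 CPM and also fell (-0.52 ± 0.18, edgeR, adjusted p = 0.0455). Lingo1, an inhibitor of myelination made by neurons and oligodendrocytes, fell from 364 to 170 CPM (-1.10 ± 0.11, edgeR, adjusted p = 2.81e-06). Fgfr2 rose (0.79 ± 0.13, edgeR, adjusted p = 0.000228) and Rxrg, a nuclear receptor gene, fell with overlapping groups (-1.03 ± 0.27, edgeR, adjusted p = 0.0127). Genes that hold back differentiation rose in 2 of 7 and fell in 2. Id4 (1.14 ± 0.14) and Id2 (0.46 ± 0.14), which block the partners of Olig proteins, rose with adjusted p of 1.77e-05 and 0.0259 by edgeR. Hes5, a Notch target, fell from 4.46 to 1.13 CPM, close to the level of 3 counts (-1.87 ± 0.58, edgeR, adjusted p = 0.0302) and Egr1 from 44.2 to 23.1 CPM (-0.92 ± 0.21, adjusted p = 0.0051).

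In the authors' deposited table, made with another tool on the same libraries, 15 of the 28 joined members were higher and 2 lower at an adjusted p under 0.05, beside 8.44% and 8.97% of the 13739 genes in that table. The 2 lower ones there were Pdgfra (log2 fold change -0.55, adjusted p = 0.0157) and Qdpr (-0.46, 0.00972). That table calls Mag (adjusted p = 0.049), Gal3st1 (0.0476) and Mobp (0.00394), which were not called or not tested here.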

How the data were processed

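The 4 vehicle and 4 PAM libraries were grouped by their titles. The authors deposited 1 table of raw gene counts per library, with Ensembl rat identifiers, exon coordinates (Rnor_6.0) and the exonic length of each gene, per the file headers. The tools STAR, featureCounts and DESeq2 are named per the submitters' processing notes; the sources used here do not give their versions, the annotation release, the strandedness or how reads with several alignments were handled, so genes with overlapping partners are less certain. The authors' deposited comparison table holds group means as a normalized signal, log2 fold changes and p-values, per the file headers; its symbols were used to join members to counts, and where a symbol had more than 1 identifier the one with most counts was kept.

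Counts were tested in R 4.3.3 with edgeR 4.0.16: filterByExpr, TMM scaling, robust quasi-likelihood F test, group as the only term, Benjamini-Hochberg adjustment over 11740 genes and a threshold of 0.05. "Rose" and "fell" mean past this test. Standard errors (SE) were taken from the F statistic as the absolute log2 change over its root. CPM and RPKM use TMM-scaled library sizes. Variation between libraries beyond counting error, which may be technical, was 17.7% (edgeR's common coefficient of variation), with a median SE of 0.20. Each pair of replicates differed beyond sampling noise, with a chi-square of 2.83 to 16 times its degrees of freedom. The procedure was tested on simulated data.

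Members, stages, further lists, markers and motifs were chosen with earlier results of these data known. All joined members are named; of each further list the up to 4 tested genes with the smallest p are named, and 1 of these is not reported here. Marker lists are given as counts and summed levels, with no more than 2 of their genes named. Alternatives were DESeq2 1.42.0, limma-voom (limma 3.58.1), scaling by RLE or the upper quartile, a filter at a mean of 1 CPM or none at all, a block for the replicate number, leaving out each library in turn, PAM 3 and PAM 4 both left out, and removal of each library's trend with length (loess, span 0.5).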

Additional observations from a re-analysis of the deposited data

Results flagged for a closer look

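Of 50 groups of 4 libraries (25 tested members in 2 groups), 1 held a library far from the other 3 by Dixon's test, which chance flags in about 1 in 20 groups. Lpar1 was at 4.57 CPM in vehicle 1 and at 1.62 to 1.93 CPM in the other vehicle libraries. Its rise with PAM held without that library (log2 fold changes of 1.71 to 2.33 over fits with 1 library left out).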

How the results depend on the processing

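Over 17 alternatives, 9 of the 14 called members kept their direction and call (Olig1, Sox10, Sox8, Bcas1, Mbp, Cnp, Pllp, Ugt8 and Lpar1). The other 5 lost the call in at least 1 (Pdgfra, Gpr17, Cldn11, Qdpr and Evi2a). Among the 9, Ugt8 and Lpar1 had entered the test mainly through PAM libraries, so their calls carry that selection. Members higher with PAM numbered 10 to 17 and members lower 1 to 2, with 1 lower in the fit that leaves out both PAM 3 and PAM 4 and 1 to 2 over fits without 1 library. The number of genes called over the whole table stayed within 1.5 times the main value in each alternative, at 713 to 1374 higher and 796 to 1526 lower. The stage medians kept their sign throughout. The premyelinating median was 1.89 without both PAM 3 and PAM 4 and ran from 1.28 to 1.71 over fits without 1 library. The same ranges were -0.25 to -0.10 for precursor genes, 0.73 to 1.18 for lipid and metabolic enzymes and 1.20 to 1.77 for the other oligodendrocyte-enriched genes. Gpr17, Ugt8, Fa2h, Lpar1 and Evi2a entered the test mainly through PAM libraries, so all of these ranges but the precursor one carry that selection. Olig2 changed sign without PAM 1, in a range of -0.0016 to 0.15. The cause of these shifts was not tested, beyond the smaller number of libraries. DESeq2 called Nkx2-2 (log2 fold change 0.71, adjusted p = 0.0455), Gal3st1 (0.98, 0.0426) and Mag (1.09, 0.0465) in addition.

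Replicate numbers are shared by both groups, but same-numbered libraries did not deviate together (correlations of -0.0598 to 0.0677 over tested genes). Differently numbered libraries had correlations of -0.148 to 0.116. Such values cannot show what the number marks, which the labels do not say, and no pairing was assumed. With a replicate block 954 genes were higher and 1110 lower, and 13 members higher and 2 lower, Tspan2 (0.57, adjusted p = 0.0489 by edgeR) being added. Vehicle libraries held only 0 to 22 counts each of Enpp6, Mobp, Mal, Gpr17, Cldn11, Ugt8, Fa2h, Gal3st1, Lpar1 and Evi2a, which limits the precision of their values.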
